A study of Mus musculus with 41 samples.

Results

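Enhancers at Alcam and Mdfic were read by amplicon bisulfite sequencing (BS-seq) in bone marrow-derived macrophages (BMDMs). Both were defined by position on mouse genome build mm9, and every CpG of the plus strand in these regions was taken. There were 3 CpGs in the Alcam region, chr16:52425818-52426154, and 3 in the Mdfic region, chr6:15633778-15634002. These 6 CpGs belonged to 2 of the 12 amplicons, and to the 83 CpGs, that had at least 100 reads in each of the 6 BMDM samples. The CpGs were taken by position alone, whereas the study had picked these regions as latent enhancers that gained 5hmC after stimulation. Latent enhancers are regions that gain the histone marks of enhancers only once the cells are stimulated. The series as a whole held 41 samples and 27 amplicons.

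The study asked how DNA methylation is lost in T cells that divide, and whether it is lost in macrophages that stop dividing when activated. Its BMDM samples asked whether enhancers change their methylation after stimulation. All 6 came from wild type mice of the C57BL/6 strain. The labels give no age or sex for them and do not name the animals, whereas the methods of the study state an age range for all its mice together. Bone marrow was grown with L929-conditioned medium and M-CSF, the growth factor of macrophages, and the cells carried the labels KLA-0h, KLA-6h and KLA-24h. KLA is Kdo2-lipid A, the part of bacterial lipopolysaccharide that is recognized by the receptor TLR4. Each time point had 2 samples, numbered 1 and 2. The samples hold genomic DNA and no transcripts, so the cell type in the labels could not be checked against markers.

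In mammalian DNA, 5-methylcytosine (5mC) sits mostly at CpGs, and TET enzymes oxidize it to 5-hydroxymethylcytosine (5hmC) and further forms. Enhancers that become active often lose 5mC. Bisulfite turns unmodified cytosine into a base read as T, whereas 5mC and 5hmC are both read as C, so the level given here, the percentage of reads with C, is the sum of both marks and does not separate them. Alcam encodes a cell adhesion molecule of the immunoglobulin superfamily that is found on activated leukocytes and binds CD6. Mdfic encodes a protein with a MyoD family inhibitor domain, a domain that is known for binding transcription factors.

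The Alcam region lay inside the gene, which runs on the minus strand at chr16:52249109-52454187. It overlapped 0 exons and fell in the intron that follows exon 1, 28033 bases from the start of the gene. The Mdfic region overlapped 0 annotated genes. It lay 36659 bases upstream of the start of Mdfic, which runs on the plus strand at chr6:15670661-15752169, and 241801 bases from Foxp2, the nearest protein-coding gene on the other side. Both regions were poor in CpGs. The Alcam amplicon had 337 bases, of which 37.4% were G or C, and its ratio of observed to expected CpGs was 0.255. The Mdfic amplicon had 225 bases and 36.4% G or C, with a ratio of 0.410.

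The sequences between the primers are shown because all 6 CpGs, in capitals, lie in them. They are the plus strand of mm9 before conversion, for Alcam chr16:52425843-52426129 and for Mdfic chr6:15633803-15633977.
Alcam: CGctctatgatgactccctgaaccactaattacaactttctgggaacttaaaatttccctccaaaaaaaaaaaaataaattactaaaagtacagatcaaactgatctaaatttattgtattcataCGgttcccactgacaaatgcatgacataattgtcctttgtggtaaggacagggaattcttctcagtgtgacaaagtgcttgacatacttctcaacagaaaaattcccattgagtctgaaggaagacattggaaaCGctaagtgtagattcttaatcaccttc
Mdfic: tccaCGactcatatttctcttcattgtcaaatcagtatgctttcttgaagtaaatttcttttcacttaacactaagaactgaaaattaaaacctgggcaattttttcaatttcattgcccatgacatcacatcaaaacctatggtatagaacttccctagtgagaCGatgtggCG

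The primers fit converted DNA, so the forward primers hold T where the genome has C. The primers bind outside the CpGs, and the first Alcam CpG and the third Mdfic CpG lie directly beside one.
Alcam forward primer: gaaagtggtaggggagggttttaaa
Alcam reverse primer: ccatctcaaatacaaaatttacaca
Mdfic forward primer: agattatttaagattattgggaaag
Mdfic reverse primer: ataatataaacacaaaactaaacac

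The CpGs of Alcam were spaced 125 and 134 bases apart. In Mdfic, the first and second CpG were 161 bases apart, and the third followed 8 bases after the second. The letters GGGNNNNNCC, a loose form of the motif of NF-κB, TGANTCA for AP-1 and GAGGAAGT for PU.1 were searched on both strands, with 0 matches in either sequence. Among 32851 RefSeq promoters (build GRCm38.p6), windows of the length of the Alcam sequence held these letters in 49.7%, 7.60% and 2.89% of cases. Windows of the length of the Mdfic sequence held them in 32.3%, 4.78% and 1.48%. The promoter windows were matched in length only, not in their content of G and C, on which such shares depend. The absence of a match says only that these letters are not in these windows.

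Samples 1 and 2 of a time point carried 1 library name, although their titles number them as replicates. They were taken as 1 library sequenced in 2 runs, which the labels do not state. The runs differed by no more than sampling noise. Fisher's exact test between the runs gave p under 0.05 at 5, 4 and 4 of the 83 CpGs at 0, 6 and 24 h, that is at 6.02%, 4.82% and 4.82%. At the 6 CpGs of Alcam and Mdfic, the smallest of these p-values was 0.136. The runs were therefore counted as 1 sample per time point, with the mean of their levels. On this reading, a test between times compares 1 library with 1 library, not conditions, and the spread between runs is technical. Whether a difference came from the stimulus or from the culture or library cannot be told apart.

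The Alcam CpGs had 278 to 1208 reads per run, and the Mdfic CpGs had 2974 to 5130. The 95% Wilson intervals of single levels were accordingly 2.74 to 8.05 points wide for Alcam and 1.21 to 2.19 points wide for Mdfic. The libraries were PCR products with no molecular identifiers, so reads can be copies of 1 molecule, and all intervals given here cover counting error only. Conversion of unmodified cytosine was nearly complete in both amplicons. At the 61 cytosines of the Alcam amplicon outside CpGs, the share of C was 0.112% to 0.192% over the 6 samples, and the Wilson bounds reached from 0.0744% to 0.247%. At the 44 such cytosines of Mdfic it was 0.111% to 0.156%, with bounds from 0.0981% to 0.177%. Without the primer bases, which do not come from the sample, the shares were 0.125% to 0.213% for Alcam and 0.129% to 0.188% for Mdfic.

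Both enhancers were highly methylated in every sample. Levels ranged from 85.3% to 97.2% over the 18 values of Alcam and from 88.6% to 94.9% over the 18 values of Mdfic. T reads, the sign of unmodified cytosine, were thus a minority at each CpG at each time.

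At the first Alcam CpG, position 52425843, the level was 94.7% and 95.3% in runs 1 and 2 at 0 h, 97.2% and 96.2% at 6 h, and 91.1% and 93.1% at 24 h. The 6 h runs were highest and the 24 h runs lowest, with no overlap between times. At the second CpG, position 52425968, it was 87.8% and 85.6% at 0 h, 95.7% and 93.2% at 6 h, and 88.1% and 85.3% at 24 h. Here both 6 h runs stood above the other 4 samples, and 0 h and 24 h overlapped. At the third CpG, position 52426102, it was 95.1% and 93.9% at 0 h, 88.6% and 90.5% at 6 h, and 93% and 92.8% at 24 h. This CpG had its lowest levels at 6 h and its highest at 0 h, again without overlap. So the 3 CpGs of this intronic enhancer did not move together: the second was high in the 6 h library in which the third was low.

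At the first Mdfic CpG, position 15633807, the level was 90.3% and 90.8% at 0 h, 89.8% and 90.1% at 6 h, and 89.9% and 90.6% at 24 h. The runs at 24 h overlapped those at the other times. At the second CpG, position 15633968, it was 92.4% and 91.5% at 0 h, 89.7% and 88.6% at 6 h, and 91.1% and 90.8% at 24 h. The 6 h runs were lowest and the 0 h runs highest, without overlap. At the third CpG, position 15633976, it was 93.6% and 93.5% at 0 h, 94.9% at 6 h in both runs, and 92% and 91.2% at 24 h. This CpG, a few bases from the second, was highest at 6 h and lowest at 24 h, also without overlap.

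From 0 to 6 h, the second Alcam CpG showed a rise of 7.76 points, with a 95% interval of 5.23 to 11.1 points on the summed reads (adjusted p = 7.88e-08, Fisher's exact test, two-sided, Benjamini-Hochberg over 83 CpGs). The third Alcam CpG fell by 4.95 points, with an interval from -7.60 to -3.36 (adjusted p = 2.92e-06). The first differed by 1.67 points, with an interval from -0.0834 to 3.86 that includes no difference (adjusted p = 0.102). In both runs the second CpG was higher at 6 h, by 7.98 and 7.55 points. The third was lower in both, but by unequal amounts, with -6.54 and -3.37 points, and the first differed by 2.52 and 0.823 points.

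In the Mdfic enhancer, the second CpG fell by 2.83 points from 0 to 6 h, with an interval from -3.62 to -1.76 (adjusted p = 7.07e-08). The third rose by 1.34 points, with an interval from 0.596 to 2.11 (adjusted p = 0.000971). The first differed by -0.634 points, with an interval from -1.65 to 0.297 (adjusted p = 0.229). So the second and the third CpG of either enhancer moved in opposite directions between these libraries.

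With a minimum difference of 10 points, 0 of the 6 CpGs were called at 6 h, beside 4 of 83 CpGs (4.82%), all 4 in the Klf2 amplicon and all lower. A minimum of 5 points would call 1 of the 6, the second Alcam CpG, beside 22 of 83 CpGs. It would call 2 on the level of the summed reads, beside 24 of 83, since the third Alcam CpG lay near 5 points. Without replicate 2 it would also call 2, beside 22 of the 85 CpGs then tested. Without a minimum, an adjusted p under 0.05 was met by 4 of the 6, beside 57 of 83 (68.7%). At 24 h, 4 other amplicons held reads that had not been converted. In the 8 amplicons with converted reads in all samples the background was 0 of 40 CpGs (0%) with 10 points and 21 of 40 (52.5%) without a minimum. With 5 points it was 3 of 40, and 5 of 40 on the level of the summed reads. Of these 40 CpGs, 21 also had an unadjusted p under 0.05. The runs of 6 h and 0 h did not overlap at any of the 6 CpGs of Alcam and Mdfic, and this was so at 31 of the 40 (77.5%). These shares among the 6 CpGs were not tested against those of the other amplicons. The 7.76 points at the second Alcam CpG were the largest of the 40 differences between 6 and 0 h, and the median size was 1.45 points.

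From 0 to 24 h, the first Alcam CpG fell by 2.93 points, with an interval from -5.25 to -0.797 (adjusted p = 0.0118). The second differed by 0.0413 points, with an interval from -2.79 to 3.61 (adjusted p = 0.896). The third differed by -1.60 points, with an interval from -3.44 to 0.194 (adjusted p = 0.0929). At Mdfic, the second CpG fell by 1.03 points (interval from -1.90 to -0.0752, adjusted p = 0.0402) and the third by 1.93 points (interval from -2.72 to -1.0, adjusted p = 3.29e-05). The first differed by -0.340 points, and its interval from -1.39 to 0.596 includes no difference (adjusted p = 0.471). These adjusted p-values were computed over all 83 CpGs, of which 43 lay in amplicons with unconverted reads at 24 h.

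Beside this, 0 of the 6 CpGs were called at 24 h against 0 h with the minimum of 10 points, against 37 of 83 (44.6%). Without it 3 of the 6 passed, against 71 of 83 (85.5%). This count depended on both runs: it was 1 without replicate 1 and 2 without replicate 2. In the 8 converted amplicons the shares were 0 of 40 (0%) with the minimum and 28 of 40 (70%) without it, and 29 of the 40 had an unadjusted p under 0.05. Runs of 24 h and 0 h did not overlap at 4 of the 6 CpGs and at 31 of the 40 (77.5%).

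From 6 to 24 h, the second Alcam CpG fell by 7.72 points, with an interval from -10.2 to -5.29 (adjusted p = 2.74e-09), and the first fell by 4.60 points, with an interval from -6.85 to -2.96 (adjusted p = 2.25e-06). The third rose by 3.36 points, with an interval from 1.85 to 5.84 (adjusted p = 0.000189). At Mdfic, the third CpG fell by 3.27 points (interval from -3.99 to -2.43, adjusted p = 8.42e-16). The second rose by 1.80 points (interval from 0.778 to 2.62, adjusted p = 0.000438). The first differed by 0.295 points, with an interval from -0.681 to 1.24 (adjusted p = 0.616). This comparison shares the 6 h library with that of 6 h and 0 h, so the directions of both are not independent.

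In this comparison 0 of the 6 CpGs were called with the minimum of 10 points, against 40 of 83 (48.2%), and 5 of the 6 without it, against 68 of 83 (81.9%). Without replicate 1, the 5 became 3. A minimum of 5 points would again call 1 of the 6, the second Alcam CpG, beside 47 of 83. Without replicate 2 it would call 2, beside 51 of the 85 CpGs then tested. In the converted amplicons, the minimum of 10 points left 1 of 40 CpGs (2.5%), and that of 5 points left 5 of 40. The 1 CpG lay in the Batf amplicon with both runs and in the Ptges amplicon without replicate 1. With no minimum, 25 of 40 (62.5%) passed. The runs did not overlap at 5 of the 6 CpGs and at 31 of the 40 (77.5%). At this depth, the differences of Mdfic that passed the test were between 1.03 and 3.27 points in size.

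Averaged over its 3 CpGs, the Alcam enhancer stood at 92.5% and 91.6% in the runs at 0 h, 93.9% and 93.3% at 6 h, and 90.8% and 90.4% at 24 h. The order was 6 h, 0 h and 24 h, from high to low, and the times did not overlap. With CpGs weighted by their reads, 0 h and 6 h overlapped, with 92.9% and 92.1% at 0 h and 92.8% and 93.1% at 6 h. The Mdfic enhancer stood at 92.1% and 91.9% at 0 h, 91.4% and 91.2% at 6 h, and 91.0% and 90.9% at 24 h. Its order was 0 h, 6 h and 24 h, with smaller steps and again without overlap.

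The library means of Alcam spanned 2.99 points, from 93.6% at 6 h to 90.6% at 24 h, and those of Mdfic spanned 1.10 points, from 92% at 0 h to 90.9% at 24 h. With the same weights, the Alcam mean at 24 h minus 6 h was -1.88 points in place of -2.99, and at 6 h minus 0 h it was 0.420 in place of 1.49. The exact permutation test over the 6 samples gave p = 0.0667 for each enhancer, which is the smallest p that 15 arrangements can give, so the design cannot pass 0.05. With CpGs weighted by reads, the exact p was 0.133 for Alcam and 0.0667 for Mdfic. The test measures only the spread between runs. Of the 8 converted amplicons, 4 had unweighted means that did not overlap between times: Alcam, Mdfic, Ptges and Batf. The span of Ptges, 3.75 points, was wider than that of Alcam, and the span of Il1b, 1.08 points, was the narrowest.

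The Alcam mean exceeded the Mdfic mean by 0.0542 points at 0 h and by 2.26 points at 6 h, and at 24 h the difference was -0.342 points. At 0 h the direction differed between the runs. Alcam stood at 92.5% against 92.1% for Mdfic in run 1, and at 91.6% against 91.9% in run 2. Over the 3 libraries the mean difference was 0.656 points (p = 0.75, exact sign-flip permutation test, two-sided; the smallest p it can give is 0.25). With CpGs weighted by reads, the Alcam mean was higher at all 3 times, by 0.488, 1.62 and 0.128 points (mean 0.744, exact p = 0.25), so the direction at 24 h depended on the weights. Without replicate 1 the unweighted mean difference was 0.437 points, and without replicate 2 it was 0.875. The 3 libraries are also the 3 time points, and with 3 libraries the sign-flip test cannot reach 0.05. It therefore does not decide whether the enhancers differ in mean level.

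Among the 12 amplicons, Alcam had the highest mean level over the 6 samples, 92.1%, and that of Mdfic was 91.4%. Ptgs2, an enzyme of prostaglandin synthesis, was near both in level, with 91.2% over 5 CpGs. The samples of Ptgs2 ranged from 90.4% to 92%, so this amplicon overlapped both enhancers. The order of these 3 was not tested. Lower levels were found in the same libraries at Il6, 73.6%, Batf, 56.3%, and Il1b, 45.3%. So the libraries held loci with low levels as well.

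At 24 h, the share of C outside CpGs was 99.8% to 99.9% in the amplicons of Klf2, Ccr7, Foxo1 and Lef1, which together hold 43 CpGs, and both strands had reads there. At 0 and 6 h it did not exceed 0.965% in them. All 37 CpGs called between 24 and 0 h lay in them. Their part in the levels of Alcam and Mdfic was not tested. In Alcam and Mdfic, the share of C outside CpGs at 24 h, primer bases left out, stayed at 0.213% or less. The name of the 24 h library carries the code PB beside BS, whereas the names of the other libraries carry only BS. PB stands in this series for pyridine borane sequencing, in which unmodified cytosine is read as C. Whether such amplicons were pooled into this library was not tested. The levels of these 4 amplicons at 24 h therefore cannot be read as changes in methylation. Nor can the backgrounds over 83 CpGs at 24 h, which include them. These are 44.6% and 48.2% with the minimum of 10 points, and 85.5% and 81.9% without a minimum. The small p-values in these amplicons also lower the adjusted p-values of Alcam and Mdfic in the comparisons with 24 h. The adjustment was not repeated over the converted amplicons alone. For the second Mdfic CpG at 24 h against 0 h, the unadjusted p was 0.0344 (Fisher's exact test).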

How the data were processed

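The authors treated genomic DNA with bisulfite, amplified and pooled the loci, mapped paired-end reads to mm9 with BSMAP and deposited, for each cytosine, counts of reads with C and with C or T, without normalization. From these counts, levels were computed per CpG and run as a percentage, with at least 100 reads in each of 6 samples. Runs of a library were averaged for levels and summed for tests. CpGs were called at an adjusted p under 0.05 (Fisher's exact test, two-sided, Benjamini-Hochberg over 83 CpGs) and a difference of at least 10 points. Intervals are 95% Wilson intervals and, for differences, Newcombe intervals. Amplicons were runs of CpGs of 1 strand less than 500 bases apart, placed by their primers or by gene position. Named beside Alcam and Mdfic were the 2 amplicons nearest in mean level to each, and those with a CpG called. Of these, 1 is not reported here. The members and lists were chosen with earlier results of these data known. The restriction to converted amplicons (under 10% C outside CpGs in every sample) was chosen after seeing the data, as were the motifs, the spans of the other amplicons over time and the amplicons named for lower levels. So were the tests of read-weighted means over time and the minimum of 5 points combined with other settings. The test, without the minimum difference, was checked on simulated counts, at levels mostly lower than those of Alcam and Mdfic. The simulated counts held counting error only, with no PCR copies and no spread between libraries. Annotation was GENCODE for NCBIM37, the assembly of mm9. Python 3.11.15, scipy 1.17.1, statsmodels 0.14.6, R 4.3.3 and limma 3.58.1 were used.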

Additional observations from a re-analysis of the deposited data

Results flagged for a closer look

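Reads at the enhancers also appeared in samples of T cells, which the comparisons between times do not use. Of 35 samples other than BMDMs, 2 had such reads, and the rest had 0. In replicate 2 of the wild type Th2 cells of the first cycle (TdgWT-Th2-1st-BS), a cytosine of Mdfic had up to 12 reads and one of Alcam up to 3. In replicate 2 of the Tdg-iKO cells (TdgKO-Th2-1st-BS), the highest numbers were 5 for Mdfic and 4 for Alcam. A count of 0 allows up to 3 reads, and 3 of these 4 values exceed it. All are below the minimum of 100 reads, so no level is given. Where these reads came from was not tested.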

How the results depend on the processing

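With a minimum difference of 5 points, 22 CpGs were called at 6 h against 0 h, where the minimum of 10 points gave 4. Of the 22, 1 was a CpG of Alcam and 0 were of Mdfic. No minimum gave 57 at 6 h against 0 h, 71 at 24 h against 0 h and 68 at 24 h against 6 h. In the converted amplicons alone, an alternative chosen after seeing the data, the counts were 0, 0 and 1, since the other 43 CpGs were left out. With the replicate number as a block the counts were 4, 37 and 40, as without it, and the differences of the means within a replicate number were the same by construction. The deviations of same-numbered runs correlated at -0.174, -0.107 and 0.0858 over 40 CpGs. As the runs differed by no more than sampling noise, these values cannot decide whether the numbers pair the samples. Coverage of 20 or 500 reads and limma on the runs kept these 3 counts within 1.5 times. Without replicate 1 or 2, they were 5, 37 to 38 and 40 to 42. Weighting CpGs by reads moved the Alcam mean difference from 1.49 to 0.420 points at 6 h against 0 h and from -2.99 to -1.88 at 24 h against 6 h, since the third CpG had the most reads. Of 81 values of single CpG differences under other settings, 80 kept their sign, and 8 moved by more than the spread between runs, all at the first and the third Alcam CpG with 1 run left out. At 6 h against 0 h, the first gave 0.823 to 2.52 and the third -6.54 to -3.37 points. At 24 h against 6 h, the first gave -6.10 to -3.10 and the third 2.25 to 4.46 points. The exception in sign was the second Alcam CpG at 24 h against 0 h, which was not called. With 500 reads no Alcam CpG was left. Without replicate 1, 1 of the 6 CpGs passed at 24 h against 0 h with no minimum, and without replicate 2 it was 2, against 3 with both. At 24 h against 6 h it was 3 without replicate 1, against 5, and at 6 h against 0 h it was 3, against 4. Without replicate 2, these stayed at 5 and 4. The depth of the Alcam amplicon limits its differences to those of several points.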
